A study of Mus musculus with 17 samples.

Results

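The cortex of 6 wild-type male mice, 3 born in the KO line (KO Control) and 3 born in the R206W line (R206W Control), was compared at 8 weeks of age. These 6 animals were chosen by their labels, which give both groups the same genotype, strain (C57BL/6J), sex, age and tissue, out of 17 mice in the series. They served in the study as the littermate controls of hemizygous Hnrnph2 KO males and of hemizygous Hnrnph2 R206W males (3 mice each, also 8 weeks old), and the remaining mice were 3 P209L males and 2 P209L Control males aged 3 weeks. The KO line carries a small frameshifting insertion or deletion in Hnrnph2 that arose while the knockin lines were made, and the controls of both colonies are labelled wild type. Total RNA of bulk flash-frozen cortex was sequenced, and the deposited values are TPM, a transcript level scaled for transcript length and to the same total in each mouse. TPM keeps no read numbers, so depth is unknown for every value. The labels name the mice as replicates of a group but give neither litter, cage, dissection time nor sequencing batch.

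Littermate controls are used because separate colonies of an inbred strain do not stay identical. New mutations become fixed by drift as a colony is bred apart, gene-edited lines descend from a few founders, and mice of separate cages are handled and killed at different hours, which moves stress, activity and clock genes in the brain. A comparison of wild types between lines therefore asks how large such baseline differences are next to the differences between mice of the same colony.

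Marker genes matched the labels. Slc17a7, the vesicular glutamate transporter of cortical excitatory neurons, was at 495, 767 and 824 TPM in KO Control 1, 2 and 3 and at 789, 758 and 690 TPM in R206W Control 1, 2 and 3. The choroid plexus transcript Ttr was at 1.67 to 23.2 TPM and the striatal transcript Adora2a at 1.18 to 2.55 TPM over the 6 mice. The X-inactivation RNA Xist did not exceed 0.11 TPM and the Y-linked Ddx3y was at 31.0 to 39.1 TPM, as in males. Hnrnph2, the X-linked RNA-binding protein gene altered in the mutants, was at 80.5, 145 and 140 TPM in the KO controls and at 149, 147 and 140 TPM in the R206W controls. Its only low wild-type value was that of KO Control 1, and the KO mutants lay far below every wild type, at 21.3 to 24.4 TPM.

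KO Control 1 stood apart from the other 5 wild types before any comparison of colonies was made. It was the mouse farthest from the median of the 6 in 70.8% of the 16265 genes tested, whereas each of the other mice was farthest in 3.10% to 10.3%. Its median gene lay 0.34 below the median of the 6 mice on the log2(TPM + 1) scale, and the median genes of the other mice lay between 0.00 and 0.03 above it. Pearson's r across genes was 0.965 to 0.977 in the 5 pairs that included it, and 0.982 to 0.989 in the other 10 pairs of mice. These correlations are across genes, which are not independent replicates.

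**Figure D1:**
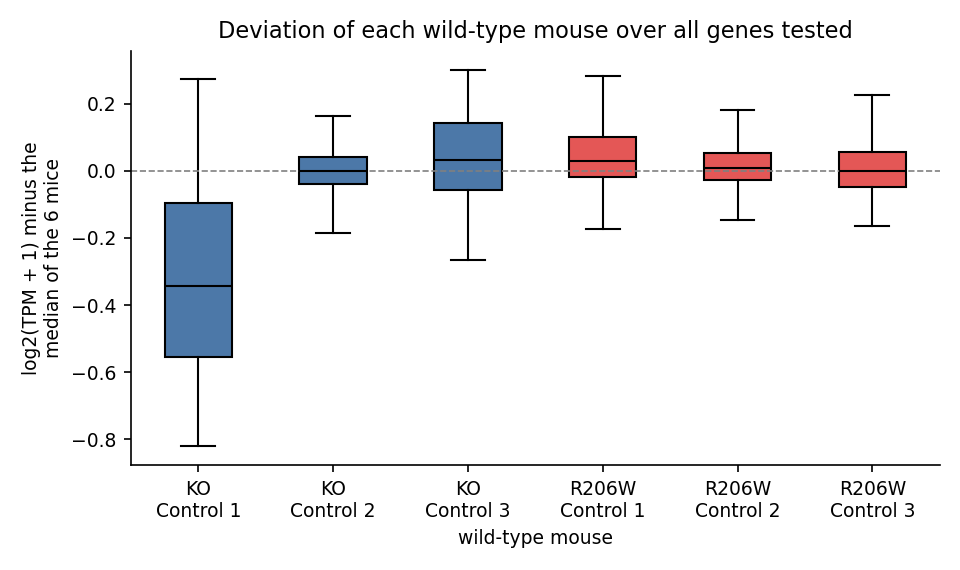
Deviation of each wild-type mouse from the median of the 6 mice, gene by gene, on the log2(TPM + 1) scale over 16265 genes. Boxes span the middle quartiles with the median as a line, and whiskers run from the 5th to the 95th percentile of genes. KO Control 1 has its median at -0.34, and the medians of the other 5 mice lie within 0.03 of 0.

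A larger share of the values of KO Control 1 belonged to mitochondrial sequence. Genes encoded by the mitochondrial genome made up 20.1% of its total, against 13.3% and 12.6% in KO Control 2 and 3 and 12.2%, 13.1% and 13.2% in R206W Control 1, 2 and 3. The 4 chromosome 1 pseudogenes that are nuclear copies of mitochondrial DNA (Gm29216, Gm10925, Gm28661 and Gm28437) made up a further 20.7%, against 12.5% to 13.7% in the other 5 mice. Protein-coding genes held 72.7% of its total and 80.5% to 82.0% in the others on this scale, whose total is the same in each mouse. That share includes the protein-coding genes of the mitochondrial genome, so it overlaps the mitochondrial share. Between the colonies the mitochondrial share did not differ beyond the spread between mice (12.8% ± 0.59 in R206W Control and 15.3% ± 4.18 in KO Control, SD, n = 3 each, exact two-sided permutation p = 0.4, where 0.1 is the smallest p that 3 against 3 mice allow).

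Across the 16265 genes, no gene differed between R206W Control and KO Control at adjusted p < 0.05 (limma, Benjamini-Hochberg, percent called 0). At unadjusted p < 0.05 there were 507 genes (3.12%), 459 higher (2.82%) and 48 lower (0.295%) in R206W Control. The background of this count leans one way: 83.9% of all genes had a higher mean in R206W Control and the median difference over all genes was 0.13 on the log2 scale. Scaling each mouse by median-of-ratios size factors, which sets the median near 0, left 285 genes at unadjusted p < 0.05, 126 higher and 159 lower, and again none at adjusted p < 0.05. With mitochondrial sequences removed the median difference was 0.04, and 292 genes were at unadjusted p < 0.05, 198 higher and 94 lower. The limits that the study applied to its mouse genes, unadjusted p < 0.05 with a log2 difference above 0.5 in size, returned 88 genes (0.541%) between these groups of wild types, 68 higher and 20 lower.

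Without KO Control 1 the lean was gone. The median difference was -0.00 and 49.1% of genes had the higher mean in R206W Control. Genes at unadjusted p < 0.05 numbered 308 (1.89%), 224 higher (1.38%) and 84 lower (0.516%), and 98 genes (0.603%) met the study's limits. At adjusted p < 0.05 there were 3 genes (0.0184%), the small RNA genes Gm44450 and Mir8103 and the pseudogene Rpl31-ps16. Leaving out KO Control 2 or KO Control 3 instead raised the number at unadjusted p < 0.05 to 1273 and 1930, and leaving out R206W Control 1 lowered it to 210. The median over genes of the SD between mice was 0.27 in KO Control with all 3 mice, 0.09 with KO Control 2 and 3 alone and 0.08 in R206W Control. The median size of the difference between group means was 0.08 without KO Control 1, close to that spread.

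Rpl31-ps16 had the smallest p of all genes in the comparison of the 6 mice. It is a processed pseudogene, an intronless copy of the mRNA of Rpl31, which encodes a protein of the large ribosomal subunit, and lies in no annotated gene on chromosome 17 (GRCm38). Its GENCODE M21 transcript aligned to that of Rpl31 over 376 bases and differed at 4 of them, an identity of 98.9%. It is shown here because the separation of its reads from those of the parent rests on so few letters. The stretch below is chr17:85498633-85498932 on the plus strand, and capitals mark the 3 bases within it that differ from Rpl31.
Rpl31-ps16: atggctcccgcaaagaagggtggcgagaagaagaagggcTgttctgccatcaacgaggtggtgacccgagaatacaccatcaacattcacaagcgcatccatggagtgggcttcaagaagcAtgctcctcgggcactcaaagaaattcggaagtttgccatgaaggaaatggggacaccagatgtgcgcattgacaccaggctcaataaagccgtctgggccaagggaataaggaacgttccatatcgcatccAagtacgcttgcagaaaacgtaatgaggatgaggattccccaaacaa

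Rpl31-ps16 was at 1.69, 0.71 and 0.85 TPM in KO Control 1, 2 and 3 and at 3.58, 3.35 and 3.23 TPM in R206W Control 1, 2 and 3. The groups did not overlap (22.8% of all genes did not without KO Control 1), with every R206W control above every KO control. Groups stayed apart in 9.07% of all genes, and 8.43% were higher in all R206W controls. The log2(TPM + 1) difference was 1.103 ± 0.16 (SE, n = 3 and 3, limma adjusted p = 0.067), and without KO Control 1 it was 1.30 ± 0.13 with an adjusted p of 0.0011. Over the alternative settings its adjusted p ran from 6.0e-07 to 1. Rpl31 itself, at 441 to 769 TPM in the KO controls and 484 to 559 TPM in the R206W controls, differed by -0.13 (unadjusted p = 0.48).

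The mutant littermates of the KO controls did not share their low Rpl31-ps16 values. The 3 KO mice were at 3.04, 3.57 and 2.91 TPM and the 3 R206W mice at 3.87, 4.11 and 3.52 TPM, a difference of 0.21 ± 0.16 (unadjusted p = 0.20). Every KO mutant lay above every KO control of its own line, and below or among the R206W controls.

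The other genes called without KO Control 1 are small RNA loci with many zeros. Mir8103 lies at chr11:97063768-97063874 on the plus strand (GRCm38), in an intron of Osbpl7 and on the same strand. Gm44450, annotated as a miRNA gene of 114 bases, lies at chr8:83929443-83929556 on the minus strand and overlaps an exon of Adgrl1 on the opposite strand. The RefSeq sequences of Mir8103 (GRCm38.p6) and the GENCODE M21 sequence of Gm44450 are given to show how short these loci are. Capitals mark the seed (bases 2 to 8) in the mature miRNA and the mature miRNA in its hairpin, and Gm44450 has none.
mmu-miR-8103: uCUCCUGUucucuguucuccc
Mir8103 hairpin: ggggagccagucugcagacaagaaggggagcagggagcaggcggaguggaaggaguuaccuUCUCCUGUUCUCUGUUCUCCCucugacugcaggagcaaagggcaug
Gm44450: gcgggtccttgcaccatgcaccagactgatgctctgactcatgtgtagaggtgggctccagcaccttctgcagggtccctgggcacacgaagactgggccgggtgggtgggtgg

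Mir8103 was listed at 0, 62.9 and 71.5 TPM in KO Control 1, 2 and 3 and at 0 in all 3 R206W controls. In the mutants it was listed at 0 in every KO mouse and at 16.5, 0 and 18.7 TPM in R206W 1, 2 and 3, so no group order was shared by the genotypes. Gm44450 was listed at 18.4 and 21.2 TPM in KO Control 2 and 3 and at 0 in the other 15 mice of the series. Their adjusted p without KO Control 1 was 0.024 and 1.5e-10, and it became 0.78 for both once KO Control 1, listed at 0 for both, was included. Whether a value of 0 here is an absent transcript or a failed estimate was not tested. The libraries were made from total RNA and not selected for small RNA, and the genes they lie in had small differences (Osbpl7 by 0.04, unadjusted p = 0.82, Adgrl1 by 0.06, unadjusted p = 0.77). Of the 50 miRNA genes tested, 64.0% were listed at 0 in some but not all of the 6 mice, against 0.0447% of 13433 protein-coding genes.

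**Figure D2:**
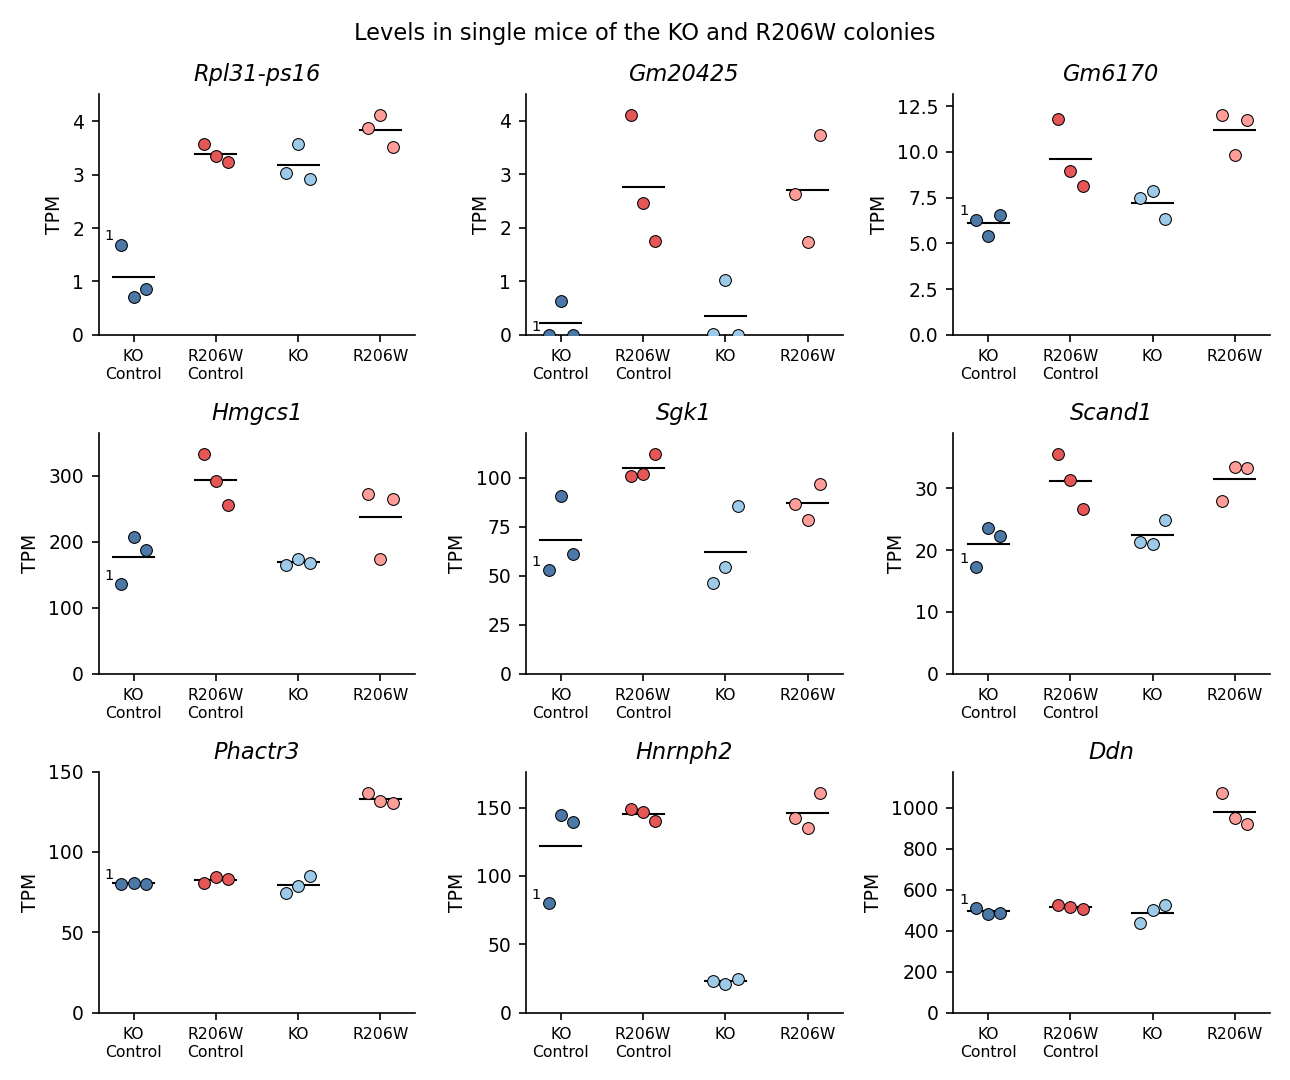
TPM of 9 genes in single mice of both colonies, with a linear axis from 0 in each panel. Points are mice, lines are means of 3, and KO Control 1 is marked with 1. Rpl31-ps16 is low in the KO controls alone, Gm20425 and Gm6170 are higher in both R206W groups, and Phactr3 and Ddn are level in the wild types and higher in the R206W mutants alone.

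The KO and R206W mutants are 6 further mice of the same colonies and share no animal with the wild types, but between them colony and allele cannot be told apart. Their comparison found 13 genes at adjusted p < 0.05 (0.0799%), all higher in R206W, and 1169 at unadjusted p < 0.05 (7.19%). A gene that differs between the colonies whatever the genotype should differ in both comparisons. Of the 224 genes higher in R206W Control at unadjusted p < 0.05 without KO Control 1, 36 (16.1%) were also higher in the R206W mutants at unadjusted p < 0.05, where 5.26% of all genes were. Of the 84 lower genes, 2 (2.38%) were also lower, where 1.92% of all genes were. Each gene has 1 estimate of spread for both comparisons, so genes with a small spread are favoured in both. Of those 38 genes, 18 were processed pseudogenes and 14 were protein-coding. Across all genes, the differences in wild types and in mutants had a Pearson r of 0.21 with all 6 wild types and -0.0085 without KO Control 1.

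Averaged over both genotypes, 12 genes differed between the lines at adjusted p < 0.05 (0.0738%), all higher in the R206W line, and without KO Control 1 the number was again 12 with 10 of the genes shared. Hnrnph2, Ppp1r9b, Ddn, Gm31166, Ilrun and Phactr3 were at unadjusted p < 0.05 in the mutants and not in the wild types. The remaining 6 were Rpl31-ps16 and the 5 genes at unadjusted p < 0.05 in each genotype, namely Gm20425, Gm6170, Gm15599, Gm16165 and Gm7232. With size factors in place of TPM alone, 3 genes differed between the lines.

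Gm20425 separated the lines most plainly. This annotated protein-coding model on chromosome 9 (103190208 to 103230307, minus strand, GRCm38) shares exons with Srprb, which encodes a subunit of the signal recognition particle receptor, and with Trf, which encodes transferrin, on the same strand. It was at 0, 0.64 and 0 TPM in the KO controls and at 4.10, 2.46 and 1.75 TPM in the R206W controls. The KO mice were at 0.01, 1.03 and 0 TPM and the R206W mice at 2.63, 1.74 and 3.74 TPM. All 6 mice of the R206W line lay above all 6 of the KO line, which held in this direction for 0.732% of genes, and the 5 mice of the P209L line were listed at 0. The difference between lines was 1.57 ± 0.21 (adjusted p = 0.0073), of which the wild types gave 1.63 ± 0.30 (adjusted p = 0.42) and the mutants 1.51 ± 0.30. Srprb and Trf did not follow it, with wild-type differences of 0.11 (unadjusted p = 0.49) and 0.15 (unadjusted p = 0.57). How reads are shared among the 3 overlapping models by the deposited estimates was not tested.

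Gm6170, a processed pseudogene on chromosome 1 outside any annotated gene, was at 6.30, 5.41 and 6.54 TPM in the KO controls and at 11.8, 8.93 and 8.15 TPM in the R206W controls. Its mutants repeated the order, with 7.45, 7.88 and 6.33 TPM in KO and 11.99, 9.83 and 11.7 TPM in R206W. The wild types differed by 0.57 ± 0.13 (adjusted p = 0.78) and the lines by 0.57 ± 0.09 (adjusted p = 0.031).

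Gm15599 lies in an intron of Arid1b on the opposite strand, and Gm16165 in an intron of Bbs9 on the opposite strand. Gm15599 was at 1.78, 1.81 and 2.15 TPM in the KO controls and at 5.04, 3.58 and 3.38 TPM in the R206W controls, without overlap. Gm16165 was at 3.29, 4.02 and 3.77 TPM against 7.06, 4.92 and 5.22 TPM, also without overlap. In the mutants both were again higher in every R206W mouse than in every KO mouse, as were 14.2% of all genes.

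Some wild-type differences had another size or sign in the mutants. Gm5784, a long noncoding RNA on chromosome 12, was at 0.86, 0.92 and 1.03 TPM in the KO controls and at 2.36, 2.29 and 2.20 TPM in the R206W controls. In the mutants its values were 2.23, 1.76 and 1.01 TPM in KO and 1.01, 1.06 and 1.06 TPM in R206W, a difference of -0.36 (unadjusted p = 0.059) against 0.76 in the wild types (unadjusted p = 0.00052). Gm49011, a pseudogene in an intron of Vwa8, was at 2.41, 4.73 and 3.74 TPM in the KO controls and listed at 0 in all 3 R206W controls. Its KO mutants were at 2.57, 2.87 and 2.12 TPM and its R206W mutants at 2.35, 0 and 1.37 TPM, a difference in the same direction (-0.81 ± 0.46, unadjusted p = 0.094) with overlap.

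Gm21769, a pseudogene locus of 111 bases on chromosome 8, was listed at 0, 22.9 and 0 TPM in the KO controls and was at 77.3, 91.6 and 129 TPM in the R206W controls. Its KO mice were at 17.4, 0 and 28.1 TPM and its R206W mice at 49.8, 78.2 and 70.9 TPM, so the lines did not overlap in either genotype. The difference of wild types had an adjusted p of 0.78 and that of lines an adjusted p of 0.12. The P209L line at 3 weeks spanned 22.6 to 104 TPM.

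Hmgcs1, among the 10 non-overlapping genes with the smallest p, encodes the cytosolic enzyme that makes HMG-CoA in cholesterol synthesis. It was at 136, 208 and 188 TPM in the KO controls and at 333, 292 and 256 TPM in the R206W controls, without overlap. The difference was 0.74 ± 0.17 (adjusted p = 0.78, unadjusted p = 0.00058), and 0.56 ± 0.16 without KO Control 1 (unadjusted p = 0.0034). Among the mutants the KO mice were at 166, 174 and 168 TPM and the R206W mice at 273, 174 and 265 TPM, so R206W 2 lay within the KO range (difference 0.46 ± 0.17, unadjusted p = 0.017).

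Without KO Control 1, most other genes of the cholesterol pathway leaned the opposite way from Hmgcs1. A list of 24 synthesis and uptake genes was put together after the value of Hmgcs1 was seen. With all 6 mice, 18 had a higher mean in R206W Control (83.9% of all genes did), with a median of 0.04. Without KO Control 1, 4 were higher (49.1% of all genes were) and 20 lower, with a median of -0.09. In that set of mice the groups stayed apart in 2 higher and 12 lower members (22.8% of all genes, both directions together). Without KO Control 1, Hmgcs1 was the only member higher at unadjusted p < 0.05 (1.38% of all genes were). Dhcr7 and Fdps, which act later in the pathway, were lower (-0.32, unadjusted p = 0.015, and -0.17, unadjusted p = 0.029), where 0.516% of all genes were. The mutants did not repeat the lower values of the list. In them 21 of the 24 genes had a higher mean in R206W (65.4% of all genes did). Their median was 0.09, and that of all genes was 0.07. Hmgcs1 overlaps the annotated antisense gene Gm48342, and whether strand was used in quantification is not given in the sources used here. Among 11 tested genes within 1 Mb of it on chromosome 13, none was at unadjusted p < 0.05 with all 6 mice (overall 3.12%) and 1 was without KO Control 1 (overall 1.89%).

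Scand1, Sdhc and Txnl4a, protein-coding genes named after their values were seen, kept the groups apart, as did 9.07% of all genes. Scand1 was at 17.2, 23.5 and 22.3 TPM in the KO controls and at 35.5, 31.4 and 26.7 TPM in the R206W controls, and the mutants had 20.98 to 24.9 TPM in KO and 28.0 to 33.5 TPM in R206W. Sdhc, a subunit of respiratory complex II, was at 62.5, 70.8 and 74.9 TPM against 95.1, 90.3 and 86.8 TPM. Txnl4a, a spliceosome component, was at 14.4, 20.1 and 16.6 TPM against 26.2, 25.8 and 20.6 TPM. Each of the 3 had an adjusted p of 0.78 with all 6 mice.

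Processed pseudogenes made up a large part of what remained without KO Control 1. Of 996 tested, 96 (9.64%) were at unadjusted p < 0.05, 88 higher and 8 lower in R206W Control, against 212 of the other 15269 genes (1.39%), 136 higher and 76 lower. Their median difference was 0.08 and that of the other genes was -0.00. With all 6 mice the shares were 10.5% and 2.63%, and in the mutants they were 10.6% and 6.96%.

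For 193 tested pseudogenes, taken by name whatever their annotated class, the name gives a parent gene that was tested too. Without KO Control 1, 24 of the 193 were higher at unadjusted p < 0.05 and none was lower, while 2 of their 124 parents were higher and none lower. The medians were 0.10 for the pseudogenes and 0.06 for the parents. Both sets leaned the same way: 127 of the 193 pseudogenes and 88 of the 124 parents had a higher mean in R206W Control (49.1% of all genes did). At unadjusted p < 0.05, 1.38% of all genes were higher. Tma7-ps was at 16.03, 13.2 and 11.2 TPM in the KO controls and 25.2, 21.5 and 18.2 TPM in the R206W controls, while its parent Tma7, which differs from it at 2 of 195 aligned bases, was at 199, 161 and 151 TPM and 150, 145 and 157 TPM. Rps19-ps7 was at 4.31, 2.29 and 2.43 TPM and 5.14, 4.79 and 4.68 TPM, and its parent Rps19 differed by -0.19 (unadjusted p = 0.17). Several pseudogenes share a parent and so share sequence, and reads of near-identical copies can be split between them in the deposited estimates, which makes all these levels uncertain.

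**Figure D3:**
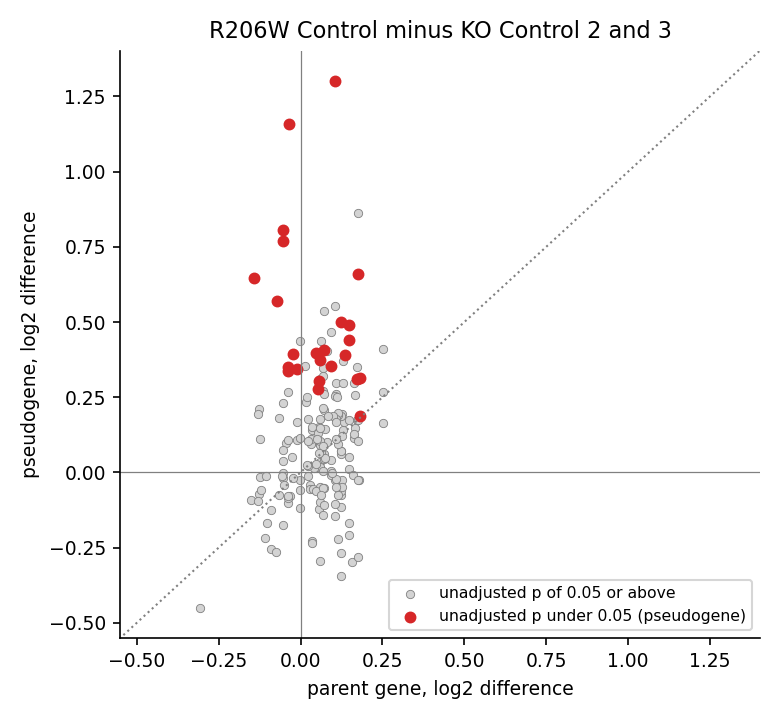
Log2(TPM + 1) difference between R206W Control and KO Control 2 and 3 for 193 pseudogenes of any annotated class (y axis) against that of the gene each is named after (x axis). Red points are the 24 pseudogenes at unadjusted p < 0.05, all above 0. The parent genes have a median of 0.06, and 88 of the 124 lie above 0.

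Protein-coding genes with low and high GC content had different medians once KO Control 1 was left out. The median difference was 0.08 in 415 genes under 40% GC and 0.06 in 2136 genes of 40 to 45%. It was -0.06 in 3016 genes of 55 to 60% and -0.02 in 679 genes above 60%, so the fall did not continue into the last bin. The share of genes with the higher mean in R206W Control was 81.9%, 77.0%, 29.5% and 40.5% in these bins. In the mutants the same bins had medians of 0.04, 0.09, 0.05 and 0.07, without this order. GC content was taken from GENCODE M21 transcripts. A fit with a length and GC trend removed was run with all 6 mice only, and like the main fit it called no gene at adjusted p < 0.05. The part of GC content in single-gene differences without KO Control 1 was not tested.

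**Figure D4:**
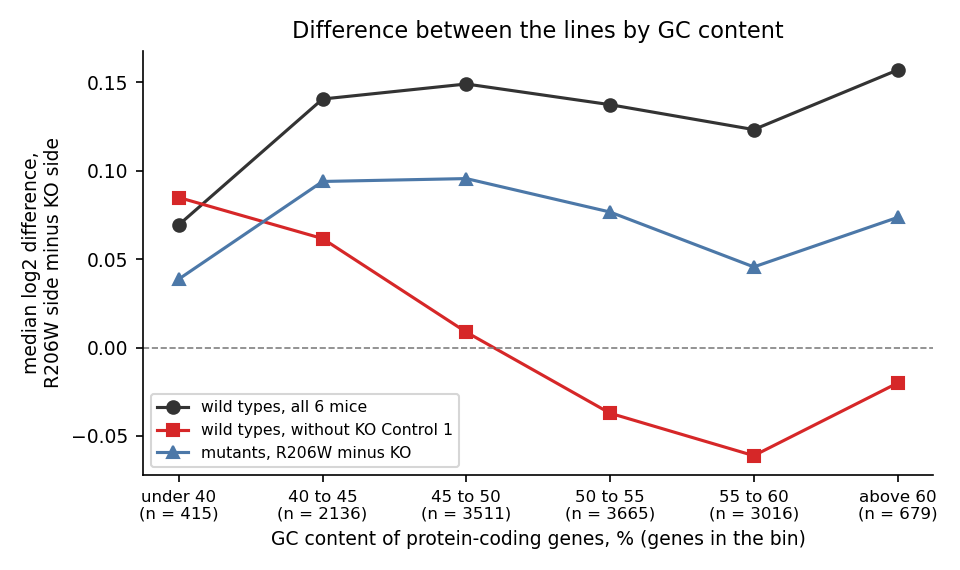
Median log2(TPM + 1) difference between the lines for protein-coding genes in 6 bins of GC content. Without KO Control 1 the wild-type medians run from 0.08 in the bin under 40% to -0.06 in the bin of 55 to 60%, and are at -0.02 above 60%. With all 6 wild types, and in the mutants, every bin lies above 0.

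The Hnrnph2 family had no member past the test between the colonies. None of the 4 genes of the hnRNP H/F family, which bind G-rich RNA and regulate splicing, was at unadjusted p < 0.05 (overall 3.12%). Hnrnph2 differed by 0.30 ± 0.17 with all 6 mice and by 0.03 ± 0.10 without KO Control 1. Its paralog Hnrnph1 was at 246, 337 and 329 TPM in the KO controls and 336, 323 and 377 TPM in the R206W controls (0.19, unadjusted p = 0.15). Hnrnpf and Hnrnph3 differed by 0.28 and 0.14 with all 6 mice and by 0.01 and -0.03 without KO Control 1. Among 50 tested genes within 5 Mb of Hnrnph2 on the X chromosome, none was at unadjusted p < 0.05 with or without KO Control 1, and the differences ran from -0.29 to 0.33 with all 6 mice.

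The study named 10 genes as raised in both knockin lines, R206W and P209L, and not in the KO line, a list chosen on mice of this series. Their wild-type differences had a median of 0.07, and none was at unadjusted p < 0.05. Phactr3, which binds protein phosphatase 1 and actin, was at 80.3, 80.8 and 80.3 TPM in the KO controls and at 80.8, 84.2 and 82.9 TPM in the R206W controls. All 6 values lay close together, that of KO Control 1 included (difference 0.04 ± 0.09). Ddn, which encodes the dendritic protein dendrin, was at 512, 484 and 489 TPM against 527, 518 and 509 TPM, and Ppp1r9b, which encodes the spine protein spinophilin, at 364, 376 and 378 TPM against 339, 368 and 389 TPM. Other members varied more between wild types: Tnpo2, a nuclear import receptor, was at 44.8 TPM in KO Control 1 and at 71.3 to 85.2 TPM in the other 5 mice, and Ash1l, a histone methyltransferase, at 24.1 TPM and at 38.4 to 39.5 TPM.

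In the main fit, exchanging the wild types between lines did not change how many of these genes were called. These comparisons share mutants or controls, so their values are set side by side only. The R206W mutants minus their own controls had a median of 0.72 over the 10 genes with 5 called at adjusted p < 0.05, and minus the KO controls a median of 0.79, also with 5 called. Over all genes, 6 were called with their own controls (0.0369%) and 9 with the KO controls (0.0553%), and the 6 were among the 9. The 3 genes added were Rpl31-ps16, Gm6170 and Gm16165, all higher in R206W Control than in KO Control. For the KO mutants, Hnrnph2 was the only gene called with either set of controls (0.00615%), by -2.30 ± 0.17 against their own and -2.61 ± 0.17 against those of the R206W line. Without KO Control 1, the difference of Hnrnph1 between KO mutants and their own controls went from 0.52 (adjusted p = 0.81) to 0.37 (adjusted p = 0.41). The counts over all genes depended on the fit. When the compared groups were fitted alone, the R206W mutants had 10 calls with their own controls and 0 with the KO controls. The KO mutants then had 0 calls with their own controls and 2 with those of the R206W line.

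Of 4 genes known to vary among C57BL/6 colonies, none was at unadjusted p < 0.05 in either set of mice. Nnt, a mitochondrial transhydrogenase that is defective in C57BL/6J, was at 7.04, 9.86 and 9.69 TPM in the KO controls and 10.2, 9.79 and 9.61 TPM in the R206W controls. Gabra2, a GABA-A receptor subunit lowered by an intronic change in C57BL/6J, was at 24.9, 26.6 and 26.4 TPM against 25.4, 26.2 and 26.3 TPM, a difference of -0.00 ± 0.10. Ide, the insulin-degrading enzyme, varied within each colony, at 27.2, 33.3 and 51.0 TPM against 35.9, 48.5 and 44.5 TPM. Fgfbp3, its neighbour, was at 5.70 to 6.58 TPM and 6.57 to 7.63 TPM (0.20, unadjusted p = 0.21).

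Lists of genes that report the state of the animal were read against the median of all genes, 0.13 with all 6 mice and -0.00 without KO Control 1. Of 12 tested glucocorticoid-responsive genes, all 12 had a higher mean in R206W Control with all 6 mice (83.9% of all genes did) and 11 without KO Control 1 (49.1% of all genes did), with medians of 0.27 and 0.22. The number higher at unadjusted p < 0.05 was 4 with all mice (2.82% of all genes) and 1 without KO Control 1 (1.38%). In the mutants 9 of the 12 were higher in R206W (65.4% of all genes were), with a median of 0.36.

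Sgk1, a kinase gene that corticosterone raises in brain, was at 52.9, 90.5 and 61.0 TPM in the KO controls and at 101, 102 and 112 TPM in the R206W controls. The groups did not overlap, and KO Control 2 lay closest to the other colony. The difference was 0.65 ± 0.21 (adjusted p = 0.78, unadjusted p = 0.0066), and 0.49 ± 0.22 without KO Control 1 (unadjusted p = 0.039). Its KO mice were at 46.4, 54.6 and 85.7 TPM and its R206W mice at 86.6, 78.4 and 96.8 TPM. Tsc22d3, the gene of the glucocorticoid-induced leucine zipper, was at 69.9, 110 and 102 TPM in the KO controls and 123, 129 and 136 TPM in the R206W controls, also without overlap. Fkbp5, a co-chaperone of the glucocorticoid receptor, overlapped widely, at 15.99, 19.8 and 28.2 TPM and 19.5, 24.3 and 30.4 TPM.

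In the other state lists the counts changed when KO Control 1 was left out. All 17 circadian clock genes had a higher mean in R206W Control with all 6 mice (83.9% of all genes did) and 5 without KO Control 1 (49.1% of all genes did), with medians of 0.19 and -0.03. Cry1, a repressor of the clock, was the only member at unadjusted p < 0.05 with all 6 mice (3.12% of all genes were). It was at 6.61, 11.9 and 14.0 TPM in the KO controls and 15.5, 14.96 and 15.7 TPM in the R206W controls. Without KO Control 1 its difference was 0.24 (unadjusted p = 0.18). Of 16 immediate-early genes, which neurons switch on when active, 15 had a higher mean with all 6 mice and 8 without KO Control 1. Jun, a subunit of the AP-1 transcription factor, was the only one at unadjusted p < 0.05 with all 6 mice (0.40, unadjusted p = 0.025), at 10.99, 13.8 and 16.6 TPM in the KO controls and 20.8, 18.7 and 15.5 TPM in the R206W controls, with overlap. Arc, one of them, was at 208, 426 and 330 TPM and 471, 310 and 303 TPM, and spread within each colony as widely as between them. All 9 heat shock genes were higher with all 6 mice and 3 without KO Control 1. Of 10 interferon and MHC class I genes, none was at unadjusted p < 0.05 with all 6 mice, and Usp18 was lower without KO Control 1 (-0.37, unadjusted p = 0.043).

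**Figure D5:**
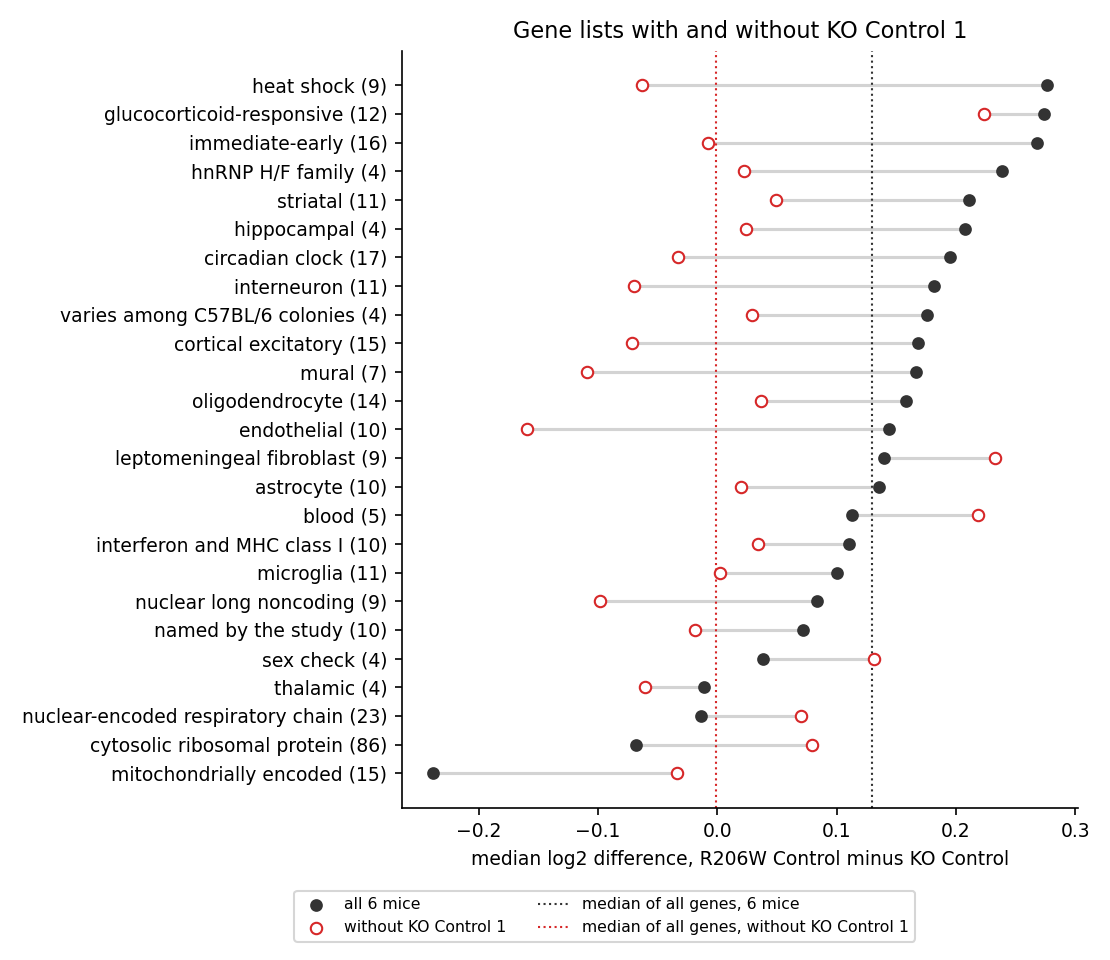
Median log2(TPM + 1) difference, R206W Control minus KO Control, of gene lists with at least 4 tested members (number in brackets, structural RNA and cholesterol lists not drawn), with all 6 mice (filled) and without KO Control 1 (open). Dotted lines are the medians over all genes, 0.13 and -0.00. The glucocorticoid-responsive list stays at 0.22 without KO Control 1, while the clock, immediate-early, heat shock and cortical excitatory lists fall to or below 0.

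Cell type and region markers gave no call at adjusted p < 0.05. Among 15 cortical excitatory genes, 14 had a higher mean in R206W Control with all 6 mice (83.9% of all genes did) and 4 without KO Control 1 (49.1% of all genes did), and their summed level was 949, 1536 and 1695 TPM in the KO controls and 1532, 1520 and 1436 TPM in the R206W controls. Bcl11b, a transcription factor of deep-layer neurons, was their only member at unadjusted p < 0.05 with all 6 mice (3.12% of all genes were). It was at 8.01, 13.0 and 14.0 TPM and 16.6, 16.2 and 14.4 TPM, and without KO Control 1 it differed by 0.20 (unadjusted p = 0.18). Interneuron genes summed to 685 TPM in KO Control 1 and to 1023 to 1183 TPM in the other 5 mice. Oligodendrocyte genes summed to 2776 TPM in KO Control 1 and 3436 to 3865 TPM in the others, and astrocyte genes to 1851 TPM and 2174 to 2432 TPM. These sums are lower in KO Control 1 as is its median gene, which lay 0.34 below the median of the 6 mice, with a size factor of 0.79 against 1.06 to 1.09 in the others. In bulk tissue, fewer cells of a type and less RNA per cell cannot be told apart.

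Vascular and border lists had other values when KO Control 1 was left out. Endothelial genes went from 8 of 10 higher to 2 of 10 and mural genes from 6 of 7 to 1 of 7. The shares of all genes were 83.9% and 49.1%. Leptomeningeal fibroblast genes were higher in 8 of 9 both ways (medians 0.14 and 0.23). No member of these 3 lists was at unadjusted p < 0.05 in either set of wild types. In the mutants, 3 of 10 endothelial, 0 of 7 mural and 0 of 9 leptomeningeal fibroblast genes were higher in R206W (65.4% of all genes were). Microglial genes had medians of 0.10 and 0.00. Among 11 tested striatal genes, Adora2a, an adenosine receptor gene, was the only one at unadjusted p < 0.05, at 1.18, 1.31 and 1.66 TPM in the KO controls and 1.92, 2.55 and 2.53 TPM in the R206W controls (0.48, adjusted p = 0.78). Choroid plexus genes summed to 5.69 to 28.9 TPM over the 6 mice, cerebellar genes to 15.7 to 18.2 TPM, hippocampal genes to 15.5 to 27.0 TPM, thalamic genes to 23.2 to 32.8 TPM and skeletal muscle genes to 10.5 to 14.9 TPM, and no tested member of them was at unadjusted p < 0.05 with all 6 mice. All 5 blood cell genes had a higher mean in R206W Control in both sets of wild types (83.9% and 49.1% of all genes did). Their medians were 0.11 and 0.22, and none was at unadjusted p < 0.05. In the mutants 0 of the 5 were higher in R206W (65.4% of all genes were), with a median of -0.63. Of these, 2 were lower at unadjusted p < 0.05 (1.92% of all genes were). The haemoglobin gene Hbb-bs was at 476, 310 and 319 TPM and 546, 307 and 321 TPM, highest in the mouse numbered 1 of each group.

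Mitochondrial genes and ribosomal protein genes ran against the median of all genes. None of the 15 mitochondrially encoded genes had a higher mean in R206W Control with all 6 mice, with a median of -0.24, and 4 did without KO Control 1, with a median of -0.03. The 23 nuclear-encoded respiratory chain genes had medians of -0.01 and 0.07, and Sdha was higher at unadjusted p < 0.05 with all 6 mice (0.34, unadjusted p = 0.041). Of 86 cytosolic ribosomal protein genes, 20 were higher in R206W Control with all 6 mice, median -0.07, and 77 without KO Control 1, median 0.08. In the mutants 8 of the 86 were higher, with a median of -0.13, the direction of the comparison with all 6 wild types and the opposite of that without KO Control 1. Ribosomal protein genes summed to 44710 TPM in KO Control 1 and to 29740 to 36130 TPM in the other wild types.

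Among the mitochondrially encoded genes, mt-Co3, mt-Atp8 and mt-Atp6 were lower in R206W Control at unadjusted p < 0.05 with all 6 mice (0.295% of all genes were). Without KO Control 1, mt-Atp8 alone was (0.516% of all genes were). mt-Co3, a subunit of cytochrome c oxidase, had the smallest p of the list (unadjusted p = 0.0067) and was at 190, 18.0 and 21.2 TPM in the KO controls and 0, 23.2 and 1.00 TPM in the R206W controls, with overlap. mt-Atp6 and mt-Atp8, overlapping genes for subunits of ATP synthase, kept the groups apart with and without KO Control 1 (9.07% and 22.8% of all genes did). mt-Atp6 was at 172, 124 and 120 TPM in the KO controls and 0.67, 42.5 and 18.1 TPM in the R206W controls, and mt-Atp8 at 94.3, 53.9 and 39.3 TPM and at 0, 0 and 6.69 TPM. mt-Co2, another subunit of cytochrome c oxidase, was at 77.0, 15.3 and 4.29 TPM and 0.19, 2.80 and 4.12 TPM, also without overlap (unadjusted p = 0.058). In the mutants mt-Atp8 was again lower in R206W (-6.16, unadjusted p = 0.0026), where 1.92% of all genes were lower at unadjusted p < 0.05. The mutant differences of mt-Co3, mt-Atp6 and mt-Co2 were -0.69, -2.03 and 0.28 (unadjusted p = 0.55, 0.20 and 0.83). These 4 genes had wild-type means of 17.3 to 79.5 TPM, whereas the other 11 genes of the list had means from 345 TPM (mt-Nd6) to 31370 TPM (mt-Co1). The chromosome 1 pseudogenes are nuclear copies of mitochondrial DNA, and how the deposited estimates divide reads between such copies was not tested, so the levels of these 4 genes are uncertain.

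Small RNA, mitochondrial and pseudogene loci were the most variable from mouse to mouse. Among genes with a mean of at least 5 TPM over the 6 mice, the 10 with the largest SD were 3 miRNA genes, 3 protein-coding genes of the mitochondrial genome, 3 pseudogenes and Rny3. Rny3, a Y RNA gene, was listed at 0 in all 3 KO controls and was at 562, 156 and 0 TPM in the R206W controls. Its paralog Rny1 was at 729, 234 and 73.2 TPM and 416, 97.7 and 188 TPM. The signal recognition particle RNA gene Rn7s1 was at 184, 46.4 and 30.3 TPM and 144, 45.3 and 84.0 TPM, so KO Control 1 was highest and R206W Control 1 next for both. Malat1, a nuclear long noncoding RNA, was at 442, 426 and 256 TPM and 561, 457 and 492 TPM (0.46, unadjusted p = 0.12). The 9 tested nuclear long noncoding genes had medians of 0.08 and -0.10 with and without KO Control 1, and the 6 tested ribosomal RNA-overlapping and structural genes were all higher in R206W Control in both sets and all lower in the R206W mutants, with medians of 0.26, 0.47 and -1.53.

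Spread between mice was largest for genes of low level. In R206W Control the median SD was 0.13 for genes at 1 to 5 TPM, 0.09 at 5 to 20 TPM, 0.07 at 20 to 100 TPM and 0.06 above 100 TPM. In KO Control the order was reversed, with 0.21 at 1 to 5 TPM and 0.30 above 100 TPM, and without KO Control 1 it was 0.11 and 0.08. The share of genes at unadjusted p < 0.05 without KO Control 1 was 3.08% at 1 to 5 TPM and 0.91% above 100 TPM.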

How the data were processed

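Cortex RNA of 17 male mice was measured, and the report uses the 6 wild types, with the 6 mutants of the same lines for comparison. The deposited TPM values were made by the authors. The submitters' processing notes name Trim Galore, STAR 2.7.1a, GATK 4.0.4.0, RSEM and mm10 without roles, and the annotation release and the use of strand are not given in the sources used here. TPM carries no read depth, so no counting interval can be given and the number of mice limits precision.

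Groups were taken from the labels. All 17 mice entered one limma model (limma 3.58.1 in R 4.3.3) with 6 group means, on log2(TPM + 1), with a mean-variance trend, for the 16265 genes with a mean of at least 1 TPM. P-values were adjusted by Benjamini-Hochberg (adjusted p < 0.05), and every unadjusted p of a gene in the text is also from limma. Differences are R206W Control minus KO Control, and those of low genes are understated by the pseudocount of 1. Single quantities were compared by exact permutation tests. P-values measure the spread between these mice. The procedure was tested on simulated data. Coordinates, GC content and transcript sequences are from GENCODE M21 (GRCm38, the same assembly as mm10), and miRNA sequences from RefSeq (GRCm38.p6). Ilrun had no match by symbol.

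The mice, gene lists and tests were chosen with earlier results of these data known. Genes were named by rule: the hnRNP H/F family, the colony-variable genes and the 10 genes named by the study, calls at adjusted p < 0.05 and the 10 non-overlapping genes with the smallest p with all 6 mice and without KO Control 1, up to 10 calls between lines, the 10 most variable genes and the 5 highest and 5 lowest in KO Control 1 against its group, and in each list the 2 smallest p, the highest level and any unadjusted p < 0.05. Scand1, Sdhc, Txnl4a, Tma7-ps and Fkbp5 were named after their values were seen, as were genes that a named gene overlaps or is copied from. Alternatives changed the pseudocount, filter, scaling, samples, weights and block, and left out each mouse, and 2 that combine leaving out KO Control 1 with another choice were added after seeing the data.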

Additional observations from a re-analysis of the deposited data

Results flagged for a closer look

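For 5 genes the difference between the lines in mutants departed from that in wild types by a limma interaction term at adjusted p < 0.05, and between mutants colony and allele cannot be told apart. The mutant difference minus the wild-type difference was 2.31 on the log2(TPM + 1) scale for Hnrnph2, 1.40 for Gm31166, 1.097 for Ppp1r9b, 0.94 for Ddn and 0.85 for Ilrun. The wild-type differences of the 5 genes were 0.30, -0.07, -0.03, 0.06 and 0.02 in that order. C1qb, a complement gene of microglia, had groups apart in opposite directions, and this difference was not tested. Its wild types were at 57.3, 59.5 and 57.5 TPM in KO Control and 61.0, 64.4 and 70.1 TPM in R206W Control, and its mutants at 67.0, 66.9 and 84.0 TPM in KO and 63.1, 61.1 and 56.8 TPM in R206W. The mutant difference minus the wild-type difference was -0.42. Groups of wild types were apart in 9.07% of all genes, and the share apart in opposite directions in wild types and mutants is not given here. Of 11 microglial genes, 10 had a higher mean in R206W Control with all 6 mice (83.9% of all genes did). In the R206W mutants 0 of the 11 were higher (65.4% of all genes were). Groups of 3 mice were not searched for single outlying values.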

How the results depend on the processing

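Between the wild types, the 0 genes at adjusted p < 0.05 (507 at unadjusted p < 0.05) became 1 in a fit of the compared groups alone, 1 with robust variance estimation, 26 with array weights, 3 without KO Control 1 and with size factors, and 8 without KO Control 1 in a fit of the compared groups alone. Leaving out 1 mouse gave 0 to 3, with 3 on omitting KO Control 1 and 1 on omitting KO Control 2. The 88 genes meeting the study's limits became 159 with a pseudocount of 0.1, 36 with a mean of at least 5 TPM and 191 with array weights, and 77 to 290 on leaving out 1 mouse: the omission of KO Control 2 gave 189, of KO Control 3 290 and of R206W Control 3 148. The median difference over all genes, 0.13, ran from -0.00 (KO Control 1 omitted) to 0.21 (KO Control 3 omitted). With no filter on low values, 1363 genes were at unadjusted p < 0.05. The 13 calls between mutants became 23 with size factors, 22 with quantile normalization, 25 with mitochondrial sequences removed, 5 in the compared groups alone, 2119 with array weights and 36 with a length and GC trend removed, and 6 to 10 on leaving out 1 mouse. The 12 calls between lines became 3, 7, 785 and 5 with size factors, the compared groups alone, array weights and the length and GC trend, and 6 to 18 on leaving out 1 mouse. With controls exchanged, the 1 call for KO became 2 without a filter, 2 in the compared groups alone and 3045 with array weights, and 1 to 2 on leaving out 1 mouse. The 9 calls for R206W became 0 and 189 in the compared groups alone and with array weights, and 7 to 12 on leaving out 1 mouse. With own controls, the 1 call for KO became 0 in the compared groups alone, 2138 with array weights and 5 without KO Control 1. The 6 calls for R206W with own controls became 10 in the compared groups alone and 149 with array weights. The 5 genes with an interaction became 12 without KO Control 1, 319 with array weights and 3 in the compared groups alone. With a length and GC trend removed there were 2. Array weights gave KO Control 1 a weight of 0.0819. The cause of these changes was not tested. Of 175 genes followed under 19 alternatives, 19 passed the threshold under some alternative, and 347 values changed sign without a call in either fit.

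Replicate numbers are shared by the groups, but same-numbered KO and R206W controls did not deviate together (r = -0.0075, 0.025 and -0.053 across genes), and not every mouse correlated best with its own number. With the replicate block, 0 genes were at adjusted p < 0.05, 599 at unadjusted p < 0.05 and 101 met the study's limits.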
